A study of Mus musculus with 12 samples.

Results

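The genes described here are 10 immediate early genes of the AP-1 and EGR families and the phosphatase Dusp1, followed through CD8 T cells of WT and TCF-1 cKO mice before and after allogeneic transplant. They were chosen by gene symbol: Fos, Fosb and Fosl2, then Jun, Junb and Jund, then Egr1, Egr2 and Egr3, and Dusp1. They are 10 of the 35855 genes to which the deposited transcripts belong, and 37 of those transcripts are theirs. The 12 RNA-seq libraries fall into 4 groups of 3. WT donors had a C57BL/6 background by their labels, and the study names both C57BL/6 and a CD45.1 congenic B6 strain as WT donors without saying which gave these libraries. TCF-1 cKO donors (TCF-1 flox x CD4cre, on a C57BL/6 background) lose Tcf7, the gene of the transcription factor TCF-1, through a CD4 promoter, at the double-positive stage of thymic development, so CD4 T cells lack it too. Pre-transplant libraries came from FACS-sorted splenic CD8 T cells of donors that received no treatment. Post-transplant libraries came from the spleens of lethally irradiated BALB/c recipients on day 7, which had received donor T cells of either genotype, always with T cell-depleted WT bone marrow, and from which CD8 T cells positive for the donor molecule H2Kb were sorted. The study's text gives the transplanted cells as CD3 T cells, while the legend of its RNA-seq figure has sorted CD8 T cells transplanted. Donors and recipients were female and matched for age as far as could be done. The study gives a lower bound of some weeks for the recipients' age, and the age of single mice is not given in the sources used here. Nor do these say that the replicates were separate mice, so p-values measure the spread between these libraries, which may be technical in part.

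Immediate early genes are transcribed within minutes of a signal, from factors already present in the cell. In T cells the antigen receptor switches them on through Ras, the MAP kinases ERK, JNK and p38, and the factors SRF, Elk and CREB that wait at their promoters. FOS and JUN proteins pair to form AP-1, EGR proteins are zinc finger factors that bind GC-rich sites, and DUSP1 removes the activating phosphates of MAP kinases and so limits the signal. The same genes respond to handling stress and are expressed in many cell types besides T cells.

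The targeted gene and the cell type markers were read first. Levels are given as normalized CPM, the count scaled by library size (CPM) and by TMM, a factor computed across the 12 libraries that allows for differences in their composition. Tcf7 was at 117.3, 76.1 and 166.1 normalized CPM in WT pre-transplant replicates 1 to 3 and at 26.3, 34.3 and 62.9 in the TCF-1 cKO libraries of that stage. In the post-transplant WT libraries Tcf7 was at 26.9, 26.5 and 10.7, and in the TCF-1 cKO libraries at 14.6, 13.7 and 14.1. The library labelled WT post-transplant replicate 3 thus lay below every TCF-1 cKO library of its stage, which goes against its label, and the tests that use it are given with and without it. The genotype difference of Tcf7 did not pass an FDR of 0.1 in either stage (adjusted p = 0.223 pre-transplant and 0.308 post-transplant, edgeR quasi-likelihood test). Which exons the deletion removes is not given in the sources used here, so reads from the remaining exons may be counted.

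The pre-transplant libraries held more B cell than CD8 T cell transcripts. The summed level of 5 CD8 T cell markers (Cd3d, Cd3e, Cd3g, Cd8a, Cd8b1) was 818.6 to 974.3 normalized CPM in WT and 244.5 to 397.0 in TCF-1 cKO pre-transplant libraries. That of 8 B cell markers (among them Cd79a, Cd79b and Ms4a1) was 9118.3 to 13806.5 and 4253.0 to 9512.6 in the same libraries. Post-transplant the order was the opposite, with CD8 T cell markers at 5139.4 to 8394.4 and B cell markers at 362.8 to 1053.0 over both genotypes. All 8 B cell markers fell and all 5 CD8 T cell markers rose with transplant in each genotype (FDR below 0.1). Of the 12 myeloid markers 8 fell in WT and 5 in TCF-1 cKO, and their sums overlapped between the stages within each genotype. One myeloid marker rose in each, Ly6c2, which activated CD8 T cells also express, by 2.64 ± 0.52 on the log2 scale in WT (adjusted p = 0.00894) and by 2.69 ± 0.33 in TCF-1 cKO (0.000434), while Lyz2, the lysozyme gene of macrophages, fell by 6.14 ± 0.62 in WT (0.000572) and fell by 2.11 ± 0.62 in TCF-1 cKO (0.0313). Without the library labelled WT post-transplant replicate 3, all 8 B cell markers again fell and all 5 CD8 T cell markers rose in WT. Of the 12 myeloid markers 8 then fell, with Lyz2 at -5.80 ± 0.63 (adjusted p = 0.000390). The 2 that rose were Ly6c2 (3.00 ± 0.45, 0.00162) and Cst3 (1.23 ± 0.39, 0.0551). Markers named singly here and below were chosen after their values were seen. Erythroid markers summed to 2143.5 to 17301.5 pre-transplant and to 326.4 to 2618.6 post-transplant. Every comparison of stages below moves with these lists, and their part in the results was not tested. In bulk libraries, fewer cells of a type and less RNA per cell cannot be told apart.

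**Figure D1:**
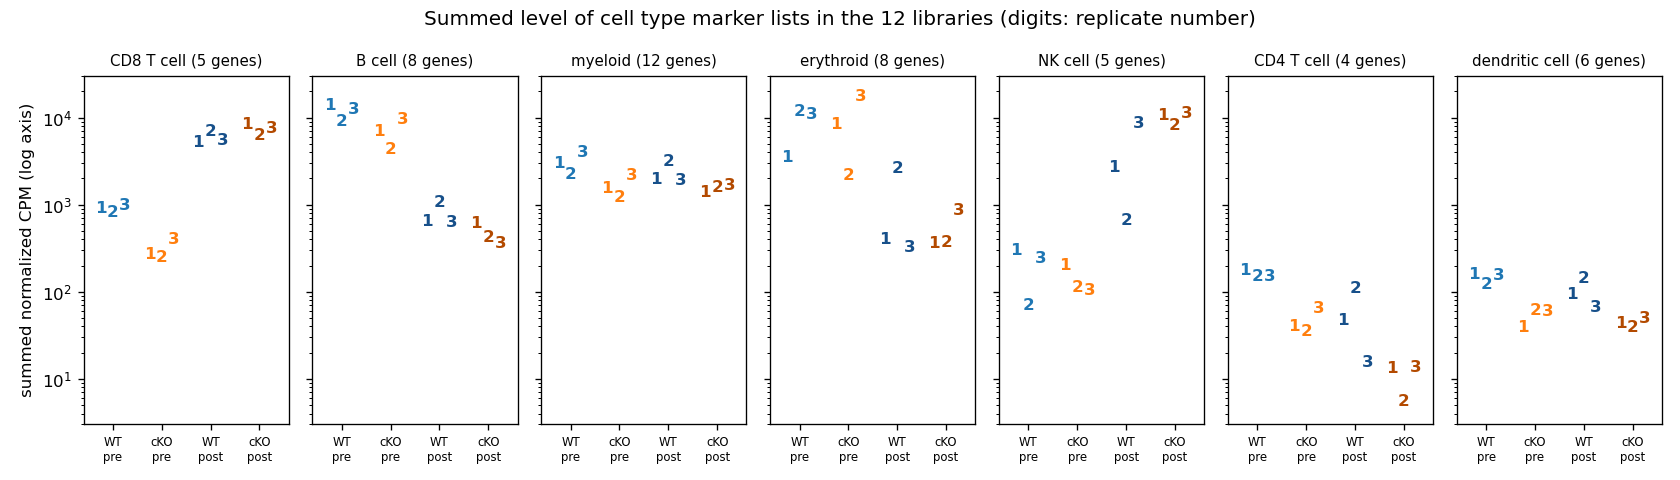
Summed normalized CPM (log axis) of 7 cell type marker lists in each library, by group, with digits for the replicate number. B cell markers lie above CD8 T cell markers in all 6 pre-transplant libraries and below them in all 6 post-transplant libraries.

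The library totals were 18978963 to 28884454 estimated counts in WT pre-transplant, 4520270 to 9577076 in TCF-1 cKO pre-transplant and 18184814 to 32657005 in the post-transplant libraries. A level of 3 counts, taken as the least a library can show, equals 0.0804 to 0.290 normalized CPM, counting error only. A further library that stood apart for these genes was TCF-1 cKO pre-transplant replicate 3, which had the highest level of its group for 8 of the 10 genes. The library labelled WT post-transplant replicate 3 had the lowest level of its group for 6 of the 10. Markers of cytotoxic cells moved with that library. The NK cell list, whose largest member Gzma is also made by effector CD8 T cells, summed to 2693.8, 660.2 and 8629.5 normalized CPM in WT post-transplant replicates 1 to 3, against 8008.2 to 11216.0 in the TCF-1 cKO libraries. TCF-1 cKO post-transplant replicate 2 carries a CD4 T cell label beside its CD8 title and was kept as titled. It held 26 counts of Cd4 and 7922 of Cd8a.

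Levels can be compared between genes as TPM, which is scaled for transcript length. In WT pre-transplant libraries Junb led with 146.9 ± 35.0 TPM (SD, n = 3), above 96.9% of the genes with a nonzero mean. Dusp1 (63.0 ± 11.8), Jun (46.2 ± 9.41) and Fos (34.4 ± 2.16) followed, and the ranges of Dusp1 and Jun overlapped. Egr1 and Jund lay near each other at 15.8 ± 6.21 and 15.6 ± 5.68 TPM, and Egr2 was at 7.35 ± 1.33. Egr3, Fosb and Fosl2 lay at 1.94 ± 0.890, 1.01 ± 0.790 and 0.608 ± 0.519 TPM, the range of each overlapping that of the next. In TCF-1 cKO post-transplant libraries Junb still led, at 10.6 ± 2.69 TPM, followed by Jund at 5.02 ± 3.06 and Dusp1 at 2.17 ± 0.953, and the other 7 genes had means of at most 0.50. The 10 genes summed to 302.8 to 367.1 TPM in WT pre-transplant libraries. Their sum was 103.3, 104.8 and 236.9 in TCF-1 cKO pre-transplant, 138.1, 158.6 and 37.8 in WT post-transplant and 27.5, 16.7 and 15.5 in TCF-1 cKO post-transplant replicates 1 to 3.

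**Figure D2:**
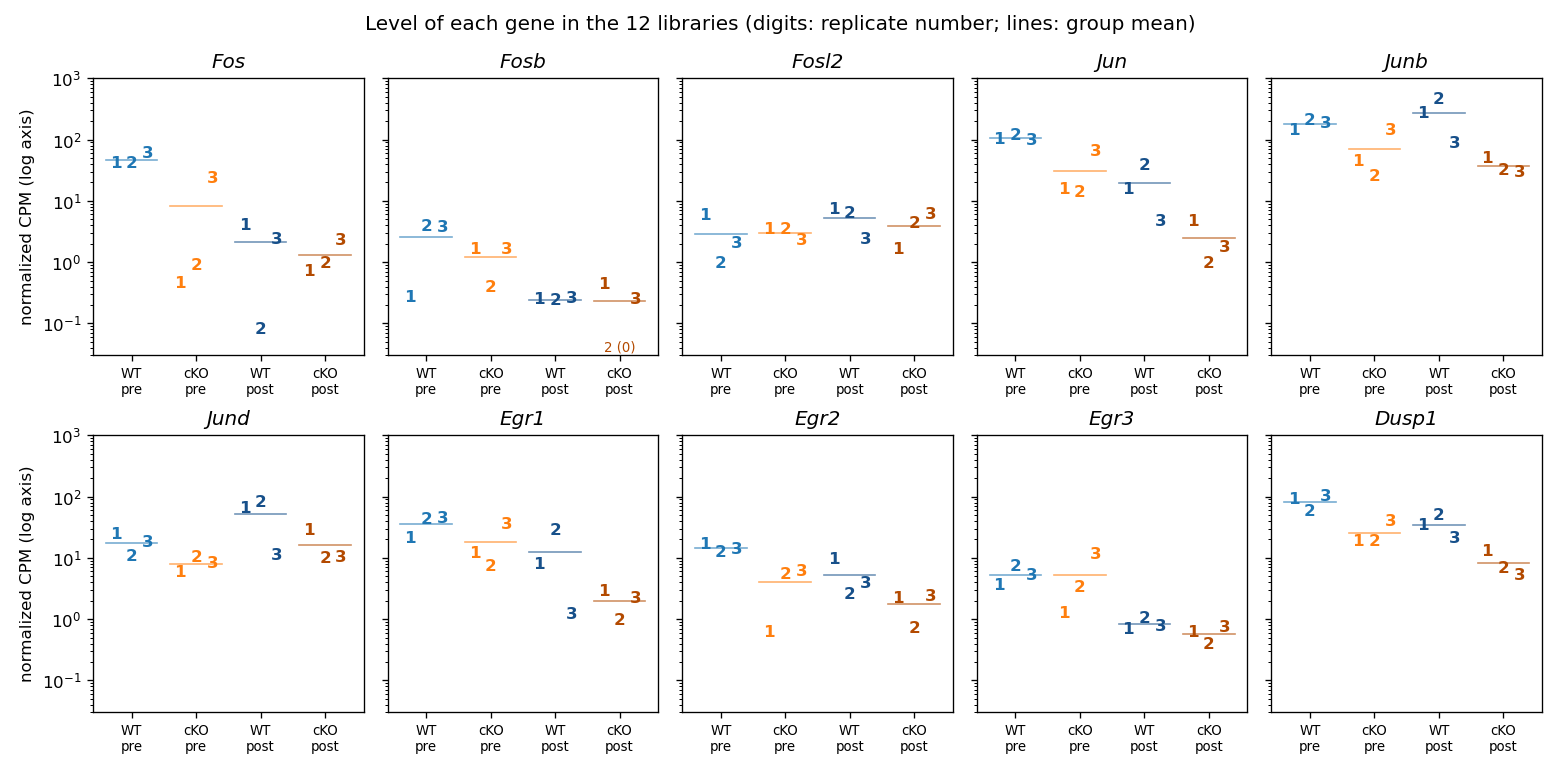
Normalized CPM (log axis) of the 10 genes in each library, by group, with digits for the replicate number and lines for the group means. Fos reaches 40.6 to 58.6 in the WT pre-transplant libraries and at most 3.95 in any post-transplant library, and Fosb is at 0 in TCF-1 cKO post-transplant replicate 2.

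Fos encodes the FOS subunit that pairs with JUN proteins. The gene (ENSMUSG00000021250) lies on chromosome 12, 85473890 to 85477273 on the plus strand (GRCm38), and has 4 exons. Its promoter is shown because Fos had the largest fall of these genes with transplant in WT. The 250 bases before the RefSeq start (GRCm38.p6, chr12:85473640-85473889, plus strand) carry in capitals a CREB core TGACGT 66 bases and a TATA box TATAAA 33 bases before the start.
Fos: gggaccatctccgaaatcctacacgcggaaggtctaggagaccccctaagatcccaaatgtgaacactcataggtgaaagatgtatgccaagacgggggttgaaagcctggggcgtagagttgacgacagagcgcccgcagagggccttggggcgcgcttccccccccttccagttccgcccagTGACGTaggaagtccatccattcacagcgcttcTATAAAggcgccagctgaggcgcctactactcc
Fos stood at 1546, 1156 and 1803 counts in WT pre-transplant replicates 1 to 3, or 41.4, 40.6 and 58.6 normalized CPM. In TCF-1 cKO pre-transplant it was at 5, 9 and 340 counts, or 0.440, 0.869 and 23.1 normalized CPM. In the post-transplant libraries it was at 3.95, 0.0780 and 2.31 normalized CPM in WT, where replicate 2 held a single read, and at 0.700, 0.942 and 2.23 in TCF-1 cKO. The 3 WT pre-transplant libraries were thus higher than all 9 others, and TCF-1 cKO pre-transplant replicate 3 lay between them and the rest.

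Fosb and Fosl2, a FOS homologue and the gene of FRA-2, had the lowest mean levels of the AP-1 genes in both pre-transplant groups. Post-transplant, by mean TPM, Fosl2 lay below Fos in WT, at 0.438 against 0.581. In TCF-1 cKO it lay above Fos and Jun, at 0.468 against 0.339 and 0.362, and the ranges of these genes overlapped in each group. Fosb (chromosome 7, 19302696 to 19310051) was at 0.268, 3.76 and 3.70 normalized CPM in WT pre-transplant and at 1.58, 0.386 and 1.63 in TCF-1 cKO pre-transplant libraries. Post-transplant it had at most 5 counts in any library and 0 in one. At that depth no genotype difference was detectable, and Fosb did not pass the filter on low counts. Fosl2 (chromosome 5, 32135801 to 32157842) was at 5.76, 0.948 and 2.01 normalized CPM in WT pre-transplant and at 3.43, 3.38 and 2.24 in TCF-1 cKO pre-transplant. It was at 7.32, 6.24 and 2.31 in WT and 1.58, 4.24 and 6.00 in TCF-1 cKO post-transplant libraries. The 4 groups of Fosl2 overlapped in every comparison. Retained-intron transcripts took 8.86% to 13.4% of Fosl2 TPM in WT and 43.9% to 77.3% in TCF-1 cKO pre-transplant libraries. Post-transplant they took 0% to 30.8% and 19.6% to 74.6%. For Fosb a retained-intron transcript took 11.5% to 60.3% in WT and 24.4% to 71.4% in TCF-1 cKO pre-transplant libraries. The levels of both genes are thus not those of spliced mRNA alone.

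Jun encodes the JUN subunit that JNK phosphorylates. The gene (ENSMUSG00000052684) is a single exon on chromosome 4, 95049034 to 95052222, minus strand. Its promoter is shown because Jun passed the test in 3 of the 4 comparisons. The 250 bases before its RefSeq start (chr4:95052223-95052472, minus strand) carry one TGACNTCA element, the site for JUN and ATF proteins, 45 bases before the start and in capitals.
Jun: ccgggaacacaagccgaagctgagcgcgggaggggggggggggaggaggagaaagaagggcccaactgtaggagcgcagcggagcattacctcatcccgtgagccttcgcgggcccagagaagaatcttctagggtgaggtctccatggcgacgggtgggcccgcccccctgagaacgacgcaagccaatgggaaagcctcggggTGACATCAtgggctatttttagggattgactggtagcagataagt
Jun was at 100.9, 116.7 and 98.0 normalized CPM in WT pre-transplant libraries and at 15.2, 13.6 and 62.9 in TCF-1 cKO pre-transplant libraries. It was at 15.1, 38.2 and 4.53 in WT post-transplant libraries and at 4.64, 0.942 and 1.73 in TCF-1 cKO post-transplant libraries. Within each genotype the stages did not overlap. Within the post-transplant stage, the library labelled WT replicate 3 (4.53) lay just below TCF-1 cKO replicate 1 (4.64).

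Junb and Jund, the other JUN subunits, had levels that overlapped between the stages. Junb (ENSMUSG00000052837, chromosome 8, 84974484 to 84978718) was at 140.4, 204.7 and 185.8 normalized CPM in WT pre-transplant and at 44.1, 24.8 and 139.4 in TCF-1 cKO pre-transplant. Post-transplant it was at 268.8, 450.5 and 86.1 in WT and at 49.6, 31.2 and 29.4 in TCF-1 cKO. On this scale each WT library was above each TCF-1 cKO library in either stage. In TPM the pre-transplant libraries of Junb overlapped, at 114.6 to 184.1 in WT and 33.4 to 120.4 in TCF-1 cKO. Jund (ENSMUSG00000071076, chromosome 8, 70698949 to 70700616, a single exon) was at 24.0, 10.4 and 18 normalized CPM in WT pre-transplant and at 5.80, 10.3 and 8.15 in TCF-1 cKO pre-transplant. It was at 64.7, 80.0 and 10.9 in WT and at 28.5, 9.89 and 10 in TCF-1 cKO post-transplant, where the library labelled WT replicate 3 fell within the TCF-1 cKO range. Both genes are rich in G and C, at 62.7% and 67.1% over their transcripts, while the other 8 lie between 53% and 56.7%.

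The makeup of the JUN family transcripts differed between the stages. Jun made up 24.1%, 22.6% and 19.7% of summed JUN family TPM in WT pre-transplant replicates 1 to 3 and 13.5%, 16.4% and 18.6% in TCF-1 cKO pre-transplant. Post-transplant its share was 2.27%, 3.6% and 2.34% in WT and 2.93%, 1.18% and 2.19% in TCF-1 cKO. The 6 pre-transplant libraries, the deviating replicate 3 among them, were thus all above the 6 post-transplant libraries. The mean share differed by -19.4 percentage points in WT and by -14.1 in TCF-1 cKO (two-sided exact permutation test, p = 0.1 each, the smallest that 3 libraries against 3 allow, and 0.2 after Benjamini-Hochberg adjustment over 12 such comparisons). Between genotypes the share differed by -5.97 points pre-transplant (exact p = 0.1, adjusted 0.2) and by -0.637 points post-transplant (exact p = 0.4, adjusted 0.533). Jund took 29.7% ± 6.56 (SD, n = 3) in TCF-1 cKO and 16.0% ± 4.4 in WT post-transplant libraries (exact p = 0.1, adjusted 0.2). With the library labelled WT post-transplant replicate 3 left out, the share of Jun differed by -19.2 points between the WT stages (exact p = 0.2, the smallest that 2 libraries against 3 allow) and by -0.835 points between the genotypes post-transplant (0.4), and that of Jund by 11.6 points between these genotypes (0.2).

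**Figure D3:**
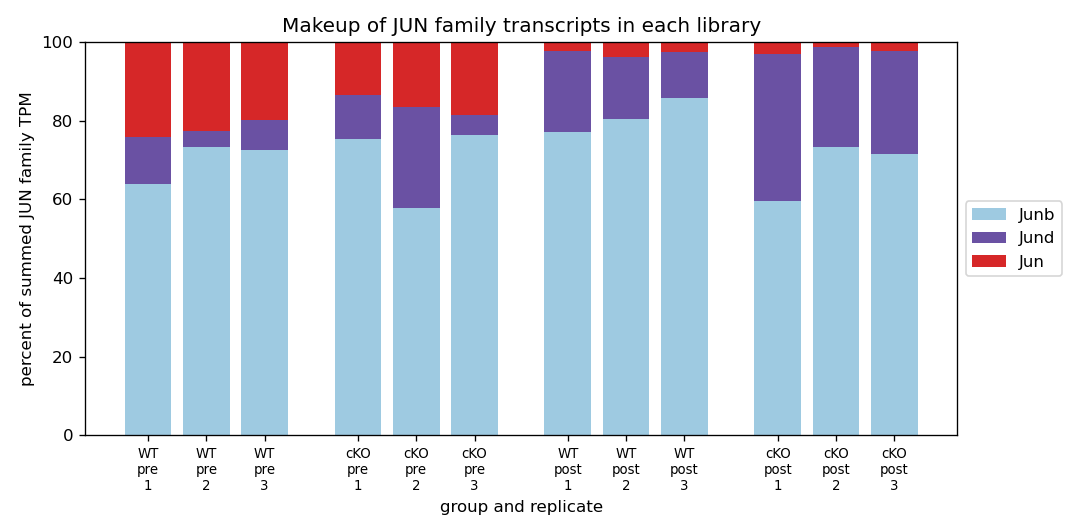
Percent of summed JUN family TPM that came from Junb, Jund and Jun in each of the 12 libraries, as stacked bars. Jun makes up 13.5% to 24.1% in the pre-transplant libraries and 1.18% to 3.6% in the post-transplant libraries.

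Egr1, Egr2 and Egr3 encode zinc finger factors, and Egr2 and Egr3 are known in T cells for restraining activation. Egr1 (ENSMUSG00000038418) was at 20.8, 42.8 and 43.7 normalized CPM in WT and at 11.9, 7.24 and 35.3 in TCF-1 cKO pre-transplant libraries. It was at 7.75, 28.1 and 1.20 in WT and at 2.80, 0.942 and 2.17 in TCF-1 cKO post-transplant libraries, so the library labelled WT replicate 3 lay within the TCF-1 cKO range. Egr3 (ENSMUSG00000033730, chromosome 14, 70077203 to 70082614) was at 3.59, 7.13 and 5.16 in WT and at 1.23, 3.28 and 11.2 in TCF-1 cKO pre-transplant libraries. It lay between 0.392 and 1.01 in all 6 post-transplant libraries, at 5 to 14 counts, below every pre-transplant library. Of Egr3 TPM, 1 retained-intron transcript took 72.6% to 100% in TCF-1 cKO pre-transplant and 43.8% to 100% in TCF-1 cKO post-transplant libraries. Its share reached 100% in both WT groups too, so the levels of Egr3 and their changes are not those of spliced mRNA alone.

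Egr2 (ENSMUSG00000037868, chromosome 10, 67535475 to 67542188, plus strand) is shown with its promoter because of a CArG box, the site of SRF. Among the 8 genes with a RefSeq window, Egr2 alone held a CArG box within the bases searched. Sequence farther upstream was not searched, so whether the other genes hold one there was not tested. In the window chr10:67537619-67537868 (plus strand) the CArG box lies 72 bases and a TGACGT core, here on the other strand, 56 bases before the start, both in capitals.
Egr2: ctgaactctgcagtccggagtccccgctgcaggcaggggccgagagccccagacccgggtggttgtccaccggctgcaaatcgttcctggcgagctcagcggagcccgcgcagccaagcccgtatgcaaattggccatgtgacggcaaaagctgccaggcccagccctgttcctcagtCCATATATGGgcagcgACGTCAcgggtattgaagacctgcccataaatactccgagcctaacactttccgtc
Egr2 was at 16.8, 12.3 and 13.7 normalized CPM in WT and at 0.615, 5.41 and 5.91 in TCF-1 cKO pre-transplant libraries. It was at 9.54, 2.50 and 3.85 in WT and at 2.19, 0.706 and 2.35 in TCF-1 cKO post-transplant libraries. In each stage every WT library, also the one labelled replicate 3 post-transplant, was above every TCF-1 cKO library.

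Dusp1 (ENSMUSG00000024190, chromosome 17, 26505590 to 26562128, minus strand) encodes a nuclear phosphatase of p38, JNK and ERK and is itself induced by these kinases. The window before its RefSeq start (chr17:26508473-26508722, minus strand) is shown because it held more CREB-type sites than that of any other of the 8 genes. Its capitals mark a TGACGT core 191 bases before the start and, 143 bases before it, a TGACGTCA palindrome that matches TGACNTCA and, on both strands, TGACGT.
Dusp1: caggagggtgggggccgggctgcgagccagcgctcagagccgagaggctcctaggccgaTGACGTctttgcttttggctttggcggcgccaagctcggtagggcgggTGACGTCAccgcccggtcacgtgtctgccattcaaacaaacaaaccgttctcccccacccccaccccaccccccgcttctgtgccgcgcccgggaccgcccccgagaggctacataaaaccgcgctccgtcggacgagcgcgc
Dusp1 was at 89.5, 56.7 and 99.0 normalized CPM in WT and at 18.2, 18.6 and 39.6 in TCF-1 cKO pre-transplant libraries. It was at 33.3, 50.0 and 20.9 in WT and at 12.8, 6.75 and 5.14 in TCF-1 cKO post-transplant libraries. Neither the genotypes within a stage nor the stages within a genotype overlapped. The 2 retained-intron transcripts took 25.2% to 47.8% of Dusp1 TPM in WT pre-transplant and 5.56% to 19.6% in WT post-transplant libraries, while their share ranged from 1.91% to 50.2% and from 0% to 95.2% in the TCF-1 cKO groups.

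Motifs were searched on both strands of the 250 bases before each RefSeq start, and 8 of the 10 genes matched the table, with 12 windows. Over 32851 windows of that length, 6.47% held TGACGT, 7.49% TGACNTCA, 6.75% the AP-1 site TGANTCA, 1.47% a CArG box, 12.4% TATAAA and 4.70% the EGR site GCGNGGGCG. TGACNTCA and TGACGT overlap in sites such as that of Dusp1. GCGNGGGCG was found before Fosb and Fosl2, 50 and 79 bases from the start. TGANTCA was found in no window of the 8 genes, and no searched motif in the windows of Junb and Jund. Sites outside the windows were not searched. The Jund window lies upstream of the annotated gene start used for the counts. Egr1 and Egr3 were not among the matched genes.

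**Figure D4:**
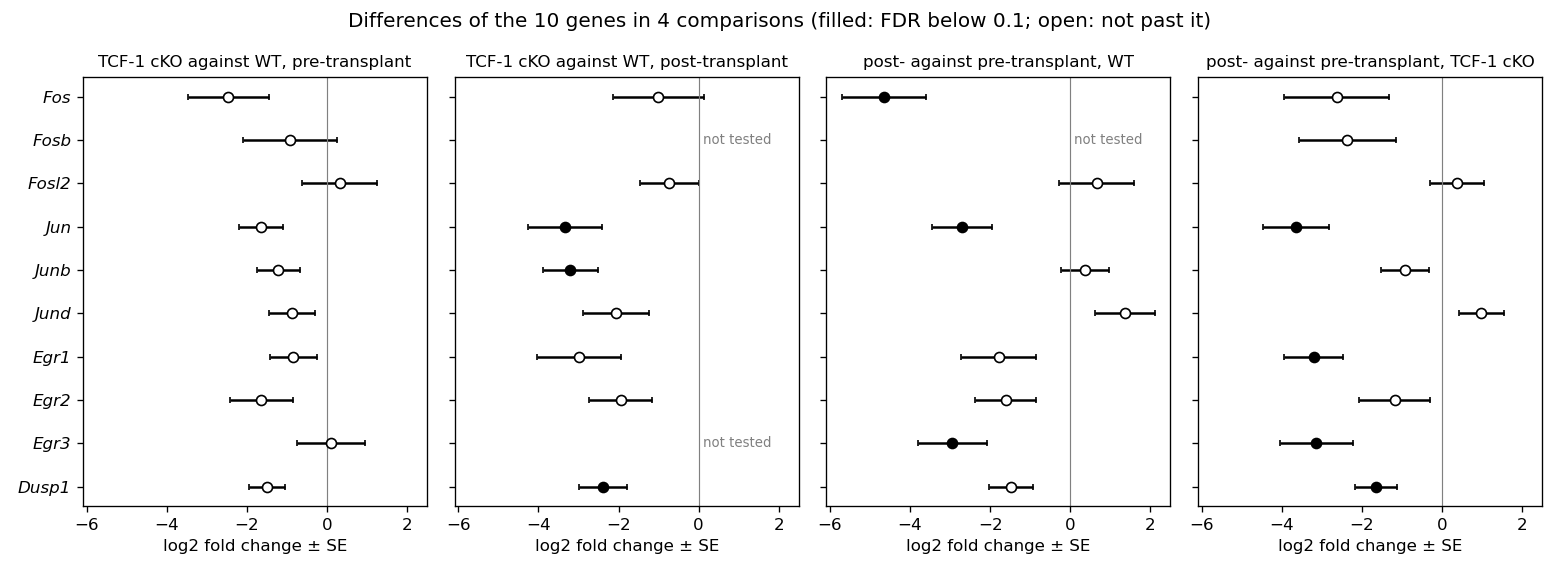
Log2 fold change with SE of each gene in 4 comparisons (edgeR, 3 libraries against 3), filled where the FDR was below 0.1 and open where it was not. Jun is filled in 3 of the 4 comparisons, Dusp1 in 2, and none is filled in the pre-transplant comparison of genotypes.

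The first comparison asks how these genes differed between the pre-transplant libraries, with their high B cell markers, and the post-transplant libraries of day 7. In WT, Fos, Jun and Egr3 fell with transplant, 3 of the 9 genes tested, and none rose. Among all 16790 genes tested 20.0% changed and 10.3% fell, so 3 of 9 is above the share that fell among all genes. The log2 fold change was -4.65 ± 1.05 (SE) for Fos (adjusted p = 0.0170, edgeR quasi-likelihood test over all genes, also below), -2.70 ± 0.74 for Jun (0.0361) and -2.95 ± 0.86 for Egr3 (0.0467). The WT post-transplant libraries were all below the pre-transplant libraries for 5 of the 9, Egr2 and Dusp1 in addition, and this was so for 16.2% of all genes. Egr2 stood at -1.61 ± 0.76 (adjusted p = 0.194) and Dusp1 at -1.48 ± 0.55 (0.108). Junb (0.37 ± 0.60), Jund (1.36 ± 0.75) and Fosl2 (0.66 ± 0.93) had positive values that did not pass the test. The median over the 9 was -1.61, against -0.30 over all genes.

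These WT calls rested on few libraries. Fos kept its call whichever library was left out, while Jun lost its call without WT pre-transplant replicate 2 or 3 or WT post-transplant replicate 1 (adjusted p = 0.112, 0.117 and 0.176) and Egr3 without any of 5 libraries (0.113 to 0.212), so between 1 and 4 genes passed. Without WT post-transplant replicate 2, Egr1 (-2.99, adjusted p = 0.0440) and Dusp1 (-1.60, 0.0872) passed in addition. Without the library labelled WT post-transplant replicate 3, Fos and Jun remained lower and Jund was higher, at 2.04 (adjusted p = 0.0298).

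In TCF-1 cKO, Jun, Egr1, Egr3 and Dusp1 fell with transplant, 4 of the 10 genes tested, and none rose. Of all 18535 genes tested 36.5% changed and 16.8% fell. The log2 fold change was -3.65 ± 0.82 for Jun (adjusted p = 0.00952), -3.20 ± 0.73 for Egr1 (0.0105), -3.14 ± 0.91 for Egr3 (0.030) and -1.64 ± 0.53 for Dusp1 (0.0452). For the same 4 genes all post-transplant libraries were below all pre-transplant libraries, which held for 23.9% of all genes. Fos, at -2.63 ± 1.31, did not pass (adjusted p = 0.166), and without TCF-1 cKO pre-transplant replicate 3 its value turned to 1.09 (adjusted p = 0.528). Without that library Jun and Egr1 passed, and Egr3 (-1.83, adjusted p = 0.218) and Dusp1 (-1.07, 0.144) did not. Without TCF-1 cKO post-transplant replicate 2, Egr3 (adjusted p = 0.101) and Dusp1 (0.146) did not pass, and without replicate 3 of that group Dusp1 did not (0.154). Without TCF-1 cKO pre-transplant replicate 1, Fos passed in addition (-3.09, 0.0913). The median over the 10 was -2.0, against -0.29 over all genes.

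The comparison of genotypes before transplant asks whether these genes differ between the TCF-1 cKO and WT pre-transplant libraries, whose mix of cell types was described above. None of the 10 passed the FDR by edgeR or by limma-voom, and by edgeR 7 of 18757 genes, or 0.0373%, passed. DESeq2's Wald test passed 2 of the 10 (Jun and Dusp1), but also 1451 of all genes. Values were negative for 8 of the 10 and for 48.7% of all genes. By normalized CPM, 6 genes (Fos, Jun, Junb, Jund, Egr2, Dusp1) were lower in every TCF-1 cKO library than in every WT library, as were 14.2% of all genes. In TPM the genotypes overlapped for Junb, Jund and Egr2, so the separation of these depends on the scaling. The largest differences were -2.46 ± 1.02 for Fos (adjusted p = 0.257), -1.65 ± 0.54 for Jun (0.218), -1.64 ± 0.78 for Egr2 (0.291) and -1.50 ± 0.45 for Dusp1 (0.209). At an unadjusted p under 0.05, 4 of the 10 and 17.7% of all genes passed. The median over the 10 was -1.07, against 0.05 over all genes. Without TCF-1 cKO pre-transplant replicate 3, 5 of the 10 were lower in TCF-1 cKO, and 2739 of all genes passed. The 5 were Fos (-5.99, adjusted p = 0.0139), Jun (-2.70, 0.0141), Junb (-2.20, 0.0194), Dusp1 (-1.98, 0.0285) and Egr1 (-1.74, 0.0895). The library left out had the highest level of its group for 8 of the 10 genes, so its removal lowers the TCF-1 cKO mean for those. Marker sums of most cell types moved with these genes before transplant. Those of CD8 T cells (given above), CD4 T cells (35.0 to 64.6 against 149.1 to 173.4 normalized CPM), dendritic cells (38.7 to 60.6 against 119.6 to 159.0) and myeloid cells (1202.0 to 2171.8 against 2217.3 to 3971.9) were lower in every TCF-1 cKO than in every WT library. The B cell sums were lower too, except that TCF-1 cKO replicate 3 (9512.6) exceeded WT replicate 2 (9118.3), and the erythroid (2143.5 to 17301.5 against 3468.3 to 11622.0) and NK cell sums (104.5 to 199.6 against 69.6 to 296.7) overlapped. No marker on the 7 lists passed the FDR in this comparison by edgeR, and their part was not tested. All these sums are scaled by the TMM factors, 1.55 to 2.31 in the TCF-1 cKO and 1.23 to 1.51 in the WT pre-transplant libraries. They were not compared without these factors.

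After transplant, Jun, Junb and Dusp1 were lower in TCF-1 cKO than in WT donor cells, 3 of the 8 genes tested, and none was higher. Fosb and Egr3 did not pass the filter on low counts. Of all 16026 genes tested 17.9% were called and 15.4% were lower. The log2 fold change was -3.34 ± 0.93 for Jun (adjusted p = 0.0578), -3.20 ± 0.69 for Junb (0.0448) and -2.39 ± 0.59 for Dusp1 (0.0459). By normalized CPM the libraries did not overlap for Junb, Dusp1 and Egr2, and 17.3% of all genes were lower without overlap. In TPM those of Egr2 overlapped. All 8 values were negative, as were 45.8% of all genes. Egr1 (-2.98 ± 1.05, adjusted p = 0.109), Jund (-2.06 ± 0.82, 0.144), Egr2 (-1.95 ± 0.78, 0.148), Fos (-1.01 ± 1.14, 0.588) and Fosl2 (-0.73 ± 0.74, 0.551) did not pass. The median was -2.22, against 0.15 over all genes.

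Marker sums of other cells differed between the post-transplant genotypes as well. Without overlap between the genotypes, the TCF-1 cKO libraries had lower sums than the WT libraries for CD4 T cells (5.49 to 13.6 against 15.3 to 110.3 normalized CPM), B cells (362.8 to 601.8 against 631.5 to 1053.0), myeloid cells (1390.3 to 1675.9 against 1875.3 to 3128.3) and dendritic cells (38.4 to 49.9 against 65.4 to 143.7). In WT most of the B cell, myeloid and dendritic sums came from Ighm (572.8 to 926.5), Ly6c2 (1064.3 to 1679.7) and Itgax (50.0 to 128.4). Negative values were found for 5 of 8 B cell (median -0.67), 7 of 12 myeloid (-0.53) and 1 of 6 dendritic cell markers (0.34). The CD8 T cell (6212.0 to 8394.4 against 5139.4 to 6856.2), NK cell (8008.2 to 11216.0 against 660.2 to 8629.5) and erythroid sums (361.3 to 857.3 against 326.4 to 2618.6) overlapped. Of single markers, Cd3e, a chain of the T cell receptor complex (-2.81 ± 0.67, adjusted p = 0.0448), the CD4 lineage genes Zbtb7b (-3.34 ± 0.96, 0.0621) and Foxp3 (-3.99 ± 1.20, 0.0718), the dendritic cell integrin gene Itgax (-2.34 ± 0.54, 0.0448) and the globin gene Hba-a2 (-3.18 ± 1.05, 0.0930) were lower in TCF-1 cKO. Lyz2 (2.16 ± 0.73, 0.0964) and the neutrophil gene S100a9 (2.49 ± 0.72, 0.0627) were higher. Cd3g, on the same list as Cd3e, went the other way without passing, at 2178.3 to 3555.0 normalized CPM in TCF-1 cKO against 325.4 to 1720.8 in WT. No B cell or NK cell marker passed. These calls held without the library labelled WT replicate 3, except that of Lyz2 (1.94 ± 0.80, 0.126), and then 2 of 8 B cell and 4 of 12 myeloid markers were lower and 2 of 5 NK cell markers higher in TCF-1 cKO. Without it, Cd3g (2.02 ± 0.48, 0.0218) and Zbtb46 of the dendritic cell list (3.33 ± 0.97, 0.0458) were also higher, and Hba-a1 (-3.79 ± 0.82, 0.0146) lower. The part of these cells in the genotype result was not tested.

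The post-transplant calls depended on single libraries and on the GC content and length of the transcripts. Without the library labelled WT replicate 3, 6 of the 8 passed, all lower in TCF-1 cKO (Jun -3.87, Junb -3.69, Dusp1 -2.75, Egr1 -3.57, Jund -2.60, Egr2 -2.27), and 5299 of all genes passed. That library had the lowest level of its group for 6 of the 10 genes, so leaving it out raises the WT mean for those. Without any one of the other 5 libraries none of the 8 passed and at most 2 of all genes did, with edgeR (adjusted p of Jun, Junb and Dusp1 0.109 to 0.206). An offset that removes from each library its trend of counts on GC content and length changed the values most for the genes richest in G and C. Junb went from -3.20 to -0.78 (adjusted p = 0.199) and Jund from -2.06 to 0.11 (0.927), while Jun went to -1.97 (0.158) and Dusp1 to -1.70 ± 0.48 (0.0996), the sole one of the 8 past the FDR. The number of all genes called fell from 2868 to 1045 with it. With the replicate number as a block in the fit, Jun did not pass, and Junb and Dusp1 did.

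**Figure D5:**
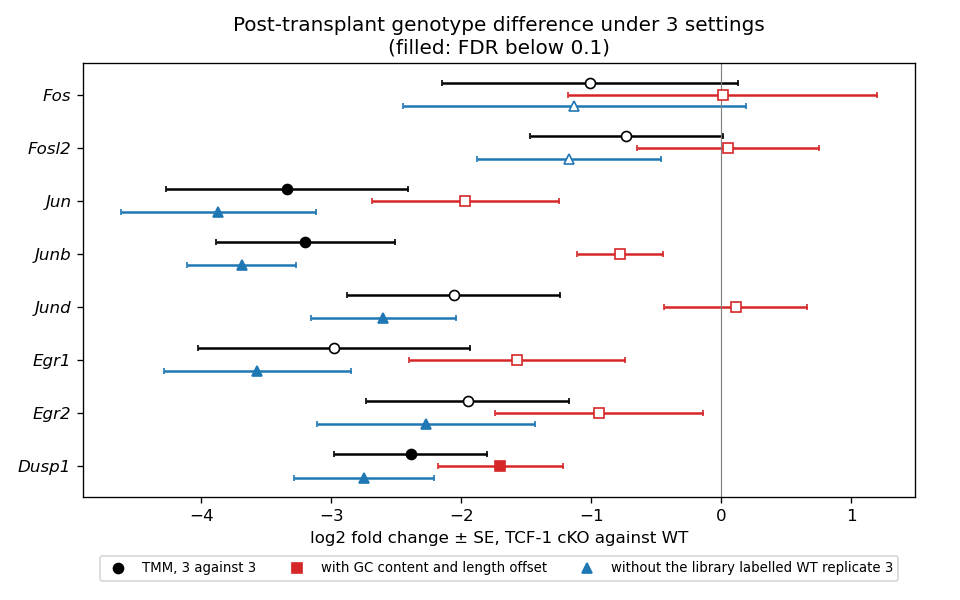
Log2 fold change with SE, TCF-1 cKO against WT post-transplant, for the 8 genes tested, with TMM alone, with the GC content and length offset, and without the library labelled WT replicate 3, filled where the FDR was below 0.1. The offset moves Junb to -0.78 and Jund to 0.11 and leaves Dusp1 filled at -1.70.

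Whether the genotype difference changed with transplant was tested by an interaction term in a fit to the 12 libraries. None of the 10 genes passed by edgeR, limma-voom or DESeq2. By edgeR none had an unadjusted p under 0.05, and 1 of 21526 genes, 0.00465%, passed, with 15.7% at an unadjusted p under 0.05. DESeq2's Wald test passed 1713 of all genes. None of the 10 and 2093 of all genes passed without the library labelled WT post-transplant replicate 3. The interaction was -1.52 ± 0.90 for Junb (adjusted p = 0.414), -1.20 ± 1.08 for Jun (0.602), -0.40 ± 0.75 for Dusp1 (0.828) and 1.81 ± 1.65 for Fos (0.608). The genotype difference of Junb or Jun is therefore not shown to differ between the stages, although it passed in only one of them. The 4 comparisons share libraries in pairs and are not independent of each other.

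The pathway lists that follow are read against the shares of all genes tested. Between the stages 9.70% of all genes rose and 10.3% fell in WT, and 19.7% rose and 16.8% fell in TCF-1 cKO. Post-transplant 15.4% were lower and 2.51% higher in TCF-1 cKO. With the library labelled WT post-transplant replicate 3 left out, these shares were 13.4% and 8.79% between the WT stages and 19.4% and 9.72% between the genotypes post-transplant, and of the list genes named for these comparisons below Nr4a2 alone lost its call. Without any one of the other 5 libraries at most 2 of all genes passed between the genotypes post-transplant, as given above, so the calls of the lists in that comparison rest on each of them.

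Among the other AP-1 subunits, Batf, whose product pairs with JUN proteins and IRF4 in effector T cells, rose with transplant by 4.0 ± 0.49 in WT (adjusted p = 0.00125) and by 5.98 ± 0.52 in TCF-1 cKO (0.000119) on the log2 scale. Of the other AP-1 subunits 1 rose and 1 fell of 7 tested in WT, and 2 rose and 1 fell of 6 in TCF-1 cKO, with medians of -0.11 and -1.03. As shares these are 14.3% each in WT and 33.3% and 16.7% in TCF-1 cKO. The counts in WT were the same without the library labelled WT post-transplant replicate 3 (median 0.43), and Batf was at 4.08 (adjusted p = 0.000344). Jdp2, a repressor that binds AP-1 sites, rose in TCF-1 cKO by 3.07 ± 0.71 (0.0109), the small MAF gene Mafk fell there by 2.94 ± 0.92 (0.0395), and Atf3, a stress-induced factor, fell in WT by 5.02 ± 1.71 (0.0797). The summed level of the 9 listed subunits was 110.7 to 126.4 normalized CPM in WT pre-transplant and 608.1 to 983.2 in WT post-transplant libraries, and Batf made up the rise, going from 33.7 to 45.1 up to 511.6 to 916.9, while the other 8 summed to 76.6 to 81.3 and to 66.3 to 96.6. Between genotypes post-transplant 2 of 7 (28.6%) were lower in TCF-1 cKO, Mafk (-3.67 ± 0.85, 0.0448) and Mafg (-2.64 ± 0.64, 0.0459), with a median of -1.05. Without that library 2 of 7 were lower and Atf3 was higher (5.04 ± 1.65, 0.0660).

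Of the listed EGR partners and targets, Tnfrsf9, the costimulatory receptor 4-1BB, rose with transplant by 6.14 ± 0.61 in WT (adjusted p = 0.000565) and by 6.88 ± 0.55 in TCF-1 cKO (0.000109). In WT 3 of 7 (42.9%) rose and none fell, with the library labelled WT post-transplant replicate 3 or without it, and in TCF-1 cKO 3 of 7 rose and 1 fell, the EGR corepressor Nab2 (-1.55 ± 0.61, 0.0889). Post-transplant 3 of 7 were lower in TCF-1 cKO than in WT with a median of -1.58: Nab2 (-3.73 ± 0.82), Nrgn (-3.54 ± 0.79) and the diacylglycerol kinase gene Dgkz (-2.88 ± 0.60), each with an adjusted p of 0.0448. Without that library 4 of 7 were lower, Dgka in addition (-1.91 ± 0.50, 0.0319).

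Of 21 other immediate early genes, 6 (28.6%) fell and 2 (9.52%) rose with transplant in WT (median -1.05), and 7 (33.3%) fell and 1 (4.76%) rose in TCF-1 cKO (median -0.71). In TCF-1 cKO the 8 called in either direction are near the 36.5% of all genes, and more of them fell. In WT again 6 fell and 2 rose when the library labelled WT post-transplant replicate 3 was left out, with Nr4a2 no longer called (2.24 ± 0.99, adjusted p = 0.160). Zfp36l1, which promotes mRNA decay, fell by 3.53 ± 0.51 in WT (adjusted p = 0.00267) and fell by 3.41 ± 0.63 in TCF-1 cKO (0.00338), and the antiproliferative gene Btg1 fell by 3.10 ± 0.60 (0.00868) and fell by 2.64 ± 0.47 (0.00304). The nuclear receptor gene Nr4a2 rose in WT by 2.35 ± 0.81 (0.0837) and the activation marker Cd69 in TCF-1 cKO by 1.67 ± 0.39 (0.0115). Post-transplant 8 of 20 (40.0%) were lower in TCF-1 cKO and none was higher (median -1.76), with Nr4a1, a reporter of antigen receptor signals, at -3.37 ± 0.68, Myc at -3.01 ± 0.70 and Ier2 at -3.20 ± 0.76 (adjusted p = 0.0448 each). With the library labelled WT replicate 3 left out, 11 of 21 were lower and 1, Cd69, was higher (2.49 ± 0.87, 0.0799). The GC content and length offset was not applied to these lists.

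Of the MAP kinase phosphatases and Sprouty inhibitors, Dusp5, a nuclear ERK phosphatase, rose with transplant by 2.32 ± 0.76 in WT (adjusted p = 0.0701) and by 3.31 ± 0.56 in TCF-1 cKO (0.00217), while Dusp1 had negative values in both. Dusp16, a JNK phosphatase, fell by 3.29 ± 0.90 (0.0356) in WT and fell by 1.90 ± 0.57 (0.0337) in TCF-1 cKO. In WT 1 of 13 (7.69%) rose and 2 (15.4%) fell, and in TCF-1 cKO 3 (23.1%) rose and 1 (7.69%) fell, each within 2 genes of what the shares of all genes would give. Post-transplant 2 of 13 were lower in TCF-1 cKO, Dusp2 (-1.82 ± 0.53, 0.0635) and Dusp5 (-1.88 ± 0.63, 0.0948), with a median of -1.45, and these 15.4% are the same share as among all genes. Leaving out the library labelled WT post-transplant replicate 3, 1 of 14 rose and 2 fell in WT, and post-transplant 5 of 14 were lower in TCF-1 cKO.

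Among 31 upstream genes of the MAP kinase, SRF and CREB pathway, 2 rose and 5 fell with transplant in WT, and 9 rose and 3 fell in TCF-1 cKO (medians -0.34 and -0.30). The genes called in either direction are 22.6% of the list in WT and 38.7% in TCF-1 cKO, near the 20.0% and 36.5% of all genes. Map2k1, which encodes MEK1, fell by 1.91 ± 0.53 in WT (adjusted p = 0.0374) and fell by 1.64 ± 0.41 in TCF-1 cKO (0.0155), and Rasgrp1, a Ras activator of T cells, fell in WT by 2.83 ± 0.66 (0.0191). Crem rose in TCF-1 cKO by 3.65 ± 0.51 (0.000786). Post-transplant 8 of 31 (25.8%) were lower in TCF-1 cKO, led by Map2k2 (-3.82 ± 0.81), Rps6ka1 (-3.94 ± 0.88) and Map2k7 (-2.75 ± 0.64), each at an adjusted p of 0.0448, but the median was 0.08. Leaving out the library labelled WT post-transplant replicate 3, 4 rose and 4 fell in WT, and post-transplant 11 were lower and 2 higher in TCF-1 cKO. In the pre-transplant comparison of genotypes none of the genes of these pathway lists passed, with medians from -0.73 to -0.39.

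A list of heat shock and dissociation genes was read because handling of cells induces both these and the immediate early genes. In WT 1 of 12 rose and 2 fell with transplant, Hspa1a (-5.21 ± 1.27, adjusted p = 0.0228) and Hspa1b (-5.08 ± 1.41, 0.0381), near-identical copies whose counts may be split between them. In TCF-1 cKO 9 of 10 rose, with Hspe1 at 3.73 ± 0.39 (0.000197) and Hsp90aa1 at 3.42 ± 0.36 (0.000194), and none fell. The median was 0.01 in WT and 2.63 in TCF-1 cKO. Between genotypes none passed in either stage, with medians of -0.61 over 12 genes pre-transplant and 0.79 over 9 post-transplant. Without the library labelled WT post-transplant replicate 3, none rose and 2 fell in WT, 4 of 10 were higher in TCF-1 cKO post-transplant (Hspa5, Hsp90aa1, Hspe1 and Dnaja1, from 1.26 to 2.15), and 7 of 12 passed the interaction, all with positive values. The part of handling in the levels of the 10 genes was not tested.

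The genes whose profile over the 12 libraries was most like the median profile of the 10 were found by the root mean square difference of centred log2 CPM, among 21516 other genes. They were Zfp646 (0.27), Tpp1 (0.34), Neurl3 (0.35), Il17ra and Rftn1 (0.36 each), Nup214, Usp19 and Klf13 (0.38 each), Rnf167 (0.39) and Ccdc88c (0.40). Il17ra, for instance, had mean levels of 261.5, 124.0, 120.6 and 29.1 normalized CPM in WT pre-transplant, TCF-1 cKO pre-transplant, WT post-transplant and TCF-1 cKO post-transplant libraries. Of the 10 themselves Dusp1 was nearest to that median (0.47) and Fos farthest (2.08). Among all genes ranked by this difference, Dusp1 was at 29, Junb at 826, Fosl2 at 7469 and Fos at 15846. The genes listed as nearest thus resemble the median profile, which is not the profile of each of the 10.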

How the data were processed

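Samples were grouped by their titles. The authors made cDNA with SMART-Seq HT and libraries with Nextera XT, a kit that does not mark strand, and pseudoaligned paired-end reads with Kallisto 0.46.2 (the labels' notes name mm9, and the transcript release is not given in the sources used here). They deposited an estimated count per transcript, which is not normalized, and a TPM value, which Kallisto scales for length and depth. Here estimated counts and TPM were summed per GENCODE M21 gene (116374 of 117497 transcripts matched), and counts were rounded.

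Genes were tested with edgeR 4.0.16 (TMM, filterByExpr, quasi-likelihood test, Benjamini-Hochberg adjustment over all genes tested, FDR 0.1 after the study), each comparison on its own 6 libraries and the interaction on 12. An SE is the log2 fold change divided by the square root of F. Alternatives were limma-voom (limma 3.58.1, the study's method, applied there to TPM), DESeq2 1.42.0 (Wald test, and its size factors in edgeR), no filter, an offset for GC content and length (loess, span 0.4), a replicate block, both of these, and leaving out each library. Library totals without a composition factor, and the lists and shares without WT post-transplant replicate 3, were added after the data were seen. Shares were compared by exact permutation tests (SciPy 1.17.1). The 10 genes and the lists were chosen with earlier results of these data known. Other named genes were Tcf7, Cd8a, Cd8b1 and Cd4, up to 3 genes a direction with the smallest p for each pathway list and comparison, and the 10 with the nearest profile. Marker lists summed as levels were CD8 T, CD4 T, B, myeloid, erythroid, NK and dendritic cell. One listed marker gene is not reported here and was left out of its sum. R was 4.3.3.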

Additional observations from a re-analysis of the deposited data

How the results depend on the processing

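Over all alternatives and left-out libraries, 568 of the values for single genes kept their direction and side of the FDR, 36 lost and 27 gained a call, and 40 changed sign, none of these with a call under TMM. Counts of called genes are given in the order pre-transplant genotype (7 of all genes, 0 of the 10), post-transplant genotype (2868, 3), WT stages (3362, 3), TCF-1 cKO stages (6774, 4) and interaction (1, 0), and settings not mentioned stayed within 1.5 times. DESeq2's Wald test called 1451 and 2 pre-transplant, 4524 and 6 post-transplant and 1713 of all genes for the interaction. Without a filter, 619 and 3 passed pre-transplant, 5 of the 10 post-transplant and 580 of all genes for the interaction. Limma-voom called 2 and DESeq2 size factors 3 genes pre-transplant. With the GC content and length offset 14 genes passed pre-transplant, 1045 and 1 post-transplant, and 5 of the 10 between WT stages, Junb now lower (-1.09, adjusted p = 0.0608). Library totals, where the median of all genes shifted to -1.25 between WT and -1.89 between TCF-1 cKO stages and to 0.39 and 0.54 between genotypes pre- and post-transplant, called 12 genes pre-transplant, 6 of the 10 between WT stages, 12268 genes and 8 of the 10 between TCF-1 cKO stages and 5 for the interaction. Of the called genes 85.2% were then lower in WT stages (51.6% with TMM) and 86.5% in TCF-1 cKO stages (46.0%). The cause of these changes was not tested.

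Replicate numbers were not used to pair the libraries in the main tests. No comparison had a correlation over 0.1 for all 3 same-numbered pairs (-0.11 to 0.12), which cannot exclude a pairing with 3 libraries a group. In the post-transplant comparison of genotypes every library correlated best with its own number, though at only 0.02 to 0.07, and in the other comparisons this was not so. The replicate block called 0 genes pre-transplant and 0 for the interaction, and Jun lost its post-transplant call (-2.92, adjusted p = 0.119). The block with the offset called 16 genes pre-transplant, 2 genes and 0 of the 10 post-transplant, 6 of the 10 between WT stages and 0 genes for the interaction.

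Leaving out each library in turn, the 10 genes gave 0 to 5 calls pre-transplant, 0 to 6 post-transplant, 1 to 4 between WT stages, 2 to 5 between TCF-1 cKO stages and 0 for the interaction, and all genes gave 0 to 2739, 0 to 5299, 1579 to 4156, 5242 to 7114 and 0 to 2093. The upper ends pre-transplant, post-transplant and for the interaction came from leaving out TCF-1 cKO pre-transplant replicate 3, the library labelled WT post-transplant replicate 3 and that library again.

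The values that changed sign were these. Pre-transplant, Egr3 went to -0.12 with limma-voom, -0.08 without a filter, -0.29 with the block, -0.06 with block and offset and between -1.05 and 0.54 with a library left out, Fosl2 to -0.06 without a filter and between -0.13 and 1.23 with a library left out, and Jund to 0.04 with the offset, alone or with the block. Post-transplant, Fos went to 0.01, Fosl2 to 0.05 and Jund to 0.11 with the offset, and to 0.77, 0.07 and 0.18 with block and offset. Between WT stages Jund went to -0.63 with the offset, Junb and Jund to -1.11 (adjusted p = 0.0972) and -0.68 with block and offset, Fosl2 and Junb to -0.34 and -0.74 with library totals, and Junb to between -0.01 and 1.00 with a library left out. Between TCF-1 cKO stages Jund went to -0.18 with the offset, -0.28 with block and offset and -0.66 with library totals, Fosl2 to -1.24 with library totals and between -0.01 and 0.79 with a library left out, Fos to between -3.26 and 1.09 and Junb to between -1.23 and 0.19 with a library left out. For the interaction Fosb went to -0.23 with limma-voom, Egr2 to -0.02 without a filter, -0.19 with library totals and between -0.58 and 1.01 with a library left out, and Fosl2, Jund and Egr3 to 0.18, 0.33 and 0.48 with the offset and 0.23, 0.25 and 0.70 with block and offset. Egr3 also went to between -1.20 and 0.62 with a library left out. Fosb and Egr3 had too few reads post-transplant to be tested between genotypes there. Whether the lower depth of the TCF-1 cKO pre-transplant libraries limits that comparison was not tested, and leaving out the deepest of them, replicate 3, raised its calls, as given above.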
